A study of Mus musculus with 20 samples.

Results

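RAD21 ChIP-seq peaks of mouse embryonic stem cells (mESCs) that lack MAZ were compared with those of the parental cells, both without auxin, to ask where cohesin is called on chromatin when MAZ is missing but CTCF is present. The members are all the peaks of 2 lists, the RAD21 list of WT with 20371 peaks and the RAD21 list of ΔMAZ with 20872 peaks, which makes 41243 of the 136043 peaks in the 12 lists of the series, made with antibodies to CTCF, MAZ and RAD21. A peak was called shared when it overlapped a peak of the other list by at least 1 bp, and otherwise WT-only or ΔMAZ-only. Both lines are E14 mESCs in which CTCF bears a degron tag that auxin activates, and both were grown with LIF and 2i, and CTCF was not degraded in either, because neither received auxin. In ΔMAZ the Maz gene had been knocked out by a transfected guide RNA, and the library title names 1 line, B2. Each side has 1 library and 1 list, so every difference is between 2 libraries, without a replicate check, and a difference between WT and ΔMAZ cannot be told apart from one between a parental population and a derived clone.

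Cohesin is a ring complex that extrudes chromatin into loops, and RAD21 is the subunit that closes the ring. Cohesin halts and accumulates at sites where CTCF is bound, which is why most RAD21 peaks of mESCs coincide with CTCF peaks, while weaker cohesin peaks also occur at active promoters and enhancers. MAZ is a zinc finger protein that binds G-rich sequence, mostly at promoters, and it has been described as a factor that, like CTCF, can mark places where cohesin stops.

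At the knocked-out gene the labels were checked against the MAZ lists. Maz lies on the minus strand at chr7:127022130-127027037 (mm10). The MAZ list held 6265 peaks in WT and 33 in ΔMAZ. A MAZ peak of fold enrichment 9.0 covered the start of Maz in WT, and no MAZ peak of ΔMAZ lay within 10 kb of the gene. RAD21 had no peak in the gene in WT. In ΔMAZ there was 1 ΔMAZ-only RAD21 peak in an intron of Maz, 1174 bp downstream of the transcription start site (TSS), of fold enrichment 4.86, where CTCF peaks of 5.68 in WT and 7.12 in ΔMAZ were called. The nearest RAD21 peak called in both lines, beside Pagr1a, had a fold enrichment of 6.64 in WT and 4.66 in ΔMAZ.

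Most RAD21 peaks of WT were called again without MAZ. Of the 20371 peaks of WT, 17003 were shared and 3368 (16.5%, the background for every WT-only count below) were WT-only. Of the 20872 peaks of ΔMAZ, 17009 were shared and 3863 (18.5%, the background for ΔMAZ-only counts) were ΔMAZ-only. The shared sites were the strong ones. The fold enrichment at the summit, which is the read pileup over the local background, had a median of 11.7 at shared peaks, 5.65 at WT-only peaks and 5.40 at ΔMAZ-only peaks. The shared share rose with strength in both lists. Over 5 equal groups of WT peaks, from the weakest to the strongest, 48.4%, 76.0%, 93.3%, 99.6% and 100% were called in ΔMAZ. Over 5 equal groups of ΔMAZ peaks, 40.9%, 73.4%, 93.7%, 99.4% and 100% were called in WT. Every one of the 4074 strongest WT peaks and the 4175 strongest ΔMAZ peaks was thus shared, and WT-only or ΔMAZ-only peaks were rare above the middle group, with 18 WT-only and 24 ΔMAZ-only peaks in the 4th groups.

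**Figure D1:**
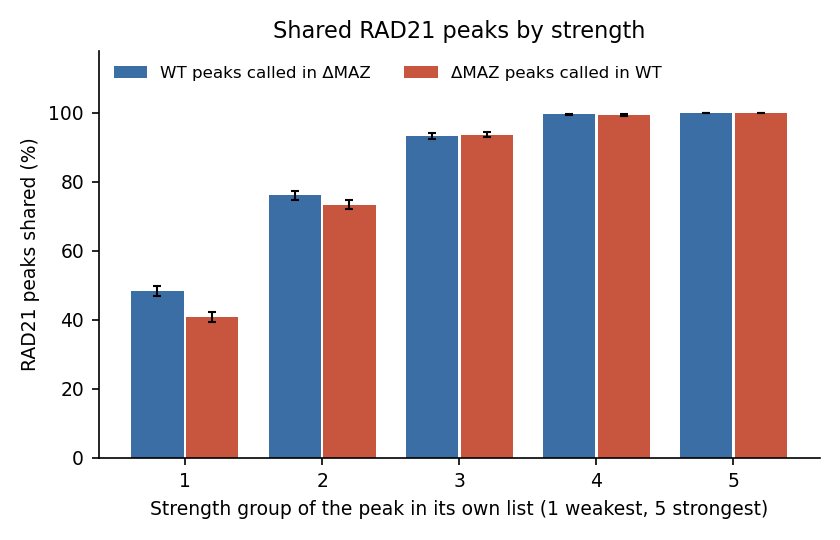
Share of RAD21 peaks that overlapped a peak of the other line, in percent, for peaks ranked into 5 equal groups by fold enrichment in their own list (blue, WT peaks called in ΔMAZ; red, ΔMAZ peaks called in WT). Bars show the share and lines the Wilson 95% interval, which covers counting error only. In the weakest group 48.4% of WT peaks and 40.9% of ΔMAZ peaks were shared, and in the strongest group 100% of both.

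Which line had more single-line peaks depended on how depth and the calling limit were set together. The lists give no read totals, and the measures of depth they allow differ. ΔMAZ over WT was 1.29 by the lowest background over the smallest peak width (the depth index), 1.22 by the lowest background and 1.14 by the median pileup of shared sites. Scaling ΔMAZ by the depth index alone, with the lowest −log10 p of WT (4.03) as the limit, kept 20841 of the 20872 ΔMAZ peaks. It left 3373 WT-only and 3837 ΔMAZ-only peaks. With so few peaks removed, that setting could hardly change a result. When both lists were held to a stricter limit without scaling, 3017 WT peaks were WT-only and 3167 ΔMAZ peaks were ΔMAZ-only. With the stricter limit and scaling by the shared pileups the numbers were 3168 and 2775, by the background 3367 and 2408, and by the depth index 3461 and 2250. The order of the numbers was thus turned under the stricter limit with each of the 3 scalings. It was not turned under that limit without scaling, nor by the depth index without that limit, and the other 2 scalings were not run without it. Few single-line peaks had a close neighbour in the other list. A RAD21 peak of the other line lay within 500 bp of 3.50% of WT-only peaks (2.93 to 4.18, 95% interval) and of 5.64% of ΔMAZ-only peaks (4.96 to 6.42).

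Shared RAD21 peaks overlapped CTCF peaks more often than WT-only or ΔMAZ-only peaks did. A CTCF peak of WT was overlapped by 92.5% of shared RAD21 peaks (92.1 to 92.9), 52.7% of WT-only peaks (51.0 to 54.4) and 45.1% of ΔMAZ-only peaks (43.6 to 46.7). The gap between shared and WT-only peaks was narrower at like strength. In the weakest group of the WT list it was 72.5% of shared (70.5 to 74.4) and 43.7% of WT-only peaks (41.6 to 45.8). In the middle group it was 93.6% (92.7 to 94.3) and 76.0% (70.6 to 80.7). The order of the WT-only and ΔMAZ-only shares was not kept under every setting. Under the stricter limit and scaling by the depth index it was 60.9% at WT-only (59.3 to 62.5) and 64.1% at ΔMAZ-only peaks (62.1 to 66.1). Of the 10000 strongest peaks of each list, 90 had no peak in the full list of ΔMAZ and 68 none in that of WT, and CTCF peaks of WT were found at 81.1% (71.8 to 87.9) and 88.2% (78.5 to 93.9) of these. RAD21 and CTCF calls also went together site by site. Where CTCF was called in both lines, 8.21% of 16563 WT RAD21 peaks were WT-only (7.80 to 8.63). Where CTCF was called in WT but not in ΔMAZ, 43.9% of 949 were WT-only (40.8 to 47.1). Where CTCF was called in ΔMAZ but not in WT the share was 35.1% of 641 (31.5 to 38.9), and with no CTCF peak in either line it was 61.6% of 2218 (59.6 to 63.6). Sites with a CTCF peak in a single line held weaker RAD21 peaks, with a median fold enrichment of 6.96 in WT against 11.7 where CTCF was called in both. For ΔMAZ peaks the ΔMAZ-only share was 9.31% where CTCF was called in both lines, 25.6% (22.6 to 28.9) where it was called only in WT, 32.3% (28.7 to 36.1) where it was called only in ΔMAZ and 69.2% with no CTCF peak. RAD21 peaks of a line were thus more often single-line where CTCF was called in that line alone than in the other line alone. The intervals were apart for WT peaks but overlapped for ΔMAZ peaks. Both kinds of site had a higher share of single-line RAD21 peaks than sites with CTCF in both.

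The sequence under the summits followed the CTCF calls. The CTCF core string CCANNAGNNGGC was searched on both strands from 50 bp before to 50 bp after each summit. It was present at 42.3% of shared (41.5 to 43.0), 28.4% of WT-only (26.9 to 29.9) and 21.6% of ΔMAZ-only peaks (20.4 to 23.0), against 1.01%, 0.965% and 1.06% of windows moved by 1 kb. For comparison it was present in 45.6% of CTCF peaks of WT and in 0.584% of windows of the same length from RefSeq promoters. The MAZ core string GGGAGGG was present at 2.71% of shared (2.48 to 2.97), 3.00% of WT-only (2.47 to 3.63) and 5.80% of ΔMAZ-only peaks (5.10 to 6.58), against 4.37%, 4.31% and 4.802% of the moved windows, 32.3% of MAZ peaks of WT and 6.57% of the promoter windows. The MAZ string was thus below its level in the moved windows at shared and WT-only peaks. A match is a description of the letters and not of binding.

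The following windows of 81 bp around the summit (mm10, plus strand, GRCm38 reference) are shown because they belong to the strongest single-line peaks and to the shared sites with the largest change, and each holds the CTCF core string, on either strand, which is given in capitals. The first 3 are WT-only peaks, the next 3 are ΔMAZ-only peaks, and the last are the shared sites at Adcyap1, which fell, and at Pla2g5, which rose in ΔMAZ.
Clstn1, chr4:149611810-149611890: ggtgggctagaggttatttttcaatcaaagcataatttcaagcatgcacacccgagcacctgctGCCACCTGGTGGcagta
Lrrk2, chr15:91736930-91737010: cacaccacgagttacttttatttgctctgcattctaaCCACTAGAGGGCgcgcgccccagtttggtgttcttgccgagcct
Wipi2, chr5:142620061-142620141: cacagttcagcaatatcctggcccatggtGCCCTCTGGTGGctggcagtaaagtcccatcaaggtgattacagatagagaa
Phex, chrX:157374056-157374136: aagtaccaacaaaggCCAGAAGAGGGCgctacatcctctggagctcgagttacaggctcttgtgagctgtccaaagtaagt
Bpi, chr2:158258949-158259029: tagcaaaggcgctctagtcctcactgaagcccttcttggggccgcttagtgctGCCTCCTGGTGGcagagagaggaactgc
C330018A13Rik, chr5:116116669-116116749: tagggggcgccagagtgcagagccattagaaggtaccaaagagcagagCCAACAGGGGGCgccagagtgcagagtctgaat
Adcyap1, chr17:93158628-93158708: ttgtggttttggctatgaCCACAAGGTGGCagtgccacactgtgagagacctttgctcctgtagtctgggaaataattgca
Pla2g5, chr4:138859449-138859529: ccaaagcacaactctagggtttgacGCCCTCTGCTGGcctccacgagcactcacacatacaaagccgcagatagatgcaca
The string was present at 6 of the 10 strongest WT-only and 5 of the 10 strongest ΔMAZ-only peaks, and at 1 of the 5 shared sites with the largest fall and 3 of the 5 with the largest rise.

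The strongest WT-only peaks lay away from promoters and mostly at CTCF sites. The top 10 by fold enrichment lay between 12.2 and 15.2, with pileups of 27 to 34 reads. None had a MAZ peak of WT, none was at a promoter, 9 had a CTCF peak in WT and 7 of these also in ΔMAZ, and 6 held the CTCF core string. The strongest was an intergenic peak at chr7:111305218-111305541, of fold enrichment 15.2, 60924 bp upstream of 5430402P08Rik, with CTCF peaks of 7.99 in WT and 7.53 in ΔMAZ. An intron of Clstn1, which encodes the neuronal membrane protein calsyntenin 1, held a WT-only peak of 13.6 at chr4:149611714-149611996, beside CTCF peaks of 17.4 in WT and 12.8 in ΔMAZ. An intron of Lrrk2, a kinase gene linked to Parkinson disease, held one of 13.0 at chr15:91736823-91737141, with CTCF peaks of 28.0 in WT and 13.2 in ΔMAZ. At these sites CTCF was called in both lines while RAD21 was called in WT alone of the untreated pair. An intron of Fnip1, which encodes a partner of folliculin, held a RAD21 peak of 12.6 at chr11:54478456-54478769, and here the CTCF peak of 11.3 was called in WT and not in ΔMAZ. The peak near Wipi2, an autophagy gene, at chr5:142619898-142620252, had a fold enrichment of 12.5 and no CTCF peak in any list, although its window holds the CTCF core string.

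The strongest ΔMAZ-only peaks were also CTCF sites. The top 10 by fold enrichment lay between 13.5 and 17.8, with pileups of 34 to 45 reads, and all 10 had a CTCF peak in WT and in ΔMAZ. None had a MAZ peak of WT, and 2 were at promoters. RAD21 was called after auxin at 6 of these 10 sites in the parental line and at 6 in the knockout line, against 1 and 0 of the 10 strongest WT-only sites. The strongest, at chr13:9194677-9195020, had a fold enrichment of 17.8 and lay 604 bp from a RAD21 peak of WT. An intron of Phex, an endopeptidase gene of phosphate handling, held a peak of 17.0 at chrX:157373959-157374268. An intron of Bpi, which encodes an antibacterial protein, held a peak of 15.1 at chr2:158258821-158259149, 895 bp downstream of the TSS. At Bpi the CTCF peak was 24.0 in WT and 18.1 in ΔMAZ, and RAD21 was called at 8.50 in ΔCTCF, which is the parental line after 2 days of auxin. The peak near C330018A13Rik, at chr5:116116554-116116880, was 14.9 in ΔMAZ and was called at 13.5 and 14.3 in the auxin-treated parental and knockout lines. Among the RAD21 libraries, the WT library was thus the only one without a call at Bpi, C330018A13Rik and Phex. The promoter of Kifc1, a kinesin gene, held a peak of 13.5 at chr17:33890816-33891077, 281 bp upstream of the TSS, with CTCF peaks of 29.3 in WT and 43.6 in ΔMAZ.

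The other RAD21 libraries of the series were then used to read the single-line peaks, since they had no part in defining them. Of WT-only peaks, 13.8% (12.7 to 15.0) were called in RAD21 ΔCTCF, from the parental line after auxin. Of ΔMAZ-only peaks it was 27.9% (26.5 to 29.4), although they were not called in the parental line without auxin, and of shared peaks 43.8% (43.1 to 44.6). The same order was seen in ΔCTCF/ΔMAZ, with 3.50% of WT-only (2.93 to 4.18), 9.42% of ΔMAZ-only (8.54 to 10.4) and 25.3% of shared peaks. Shared peaks were stronger, and in the 2 weakest strength groups the order of shared and ΔMAZ-only peaks was turned. In the weakest group of the ΔMAZ list, 31.9% of ΔMAZ-only (30.1 to 33.8) and 20.4% of shared peaks (18.6 to 22.4) were called in ΔCTCF, and in the next group 20.4% (18.1 to 22.8) and 14.7% (13.5 to 16.05). In the group after that it was 20.99% of ΔMAZ-only (16.5 to 26.3) and 25.3% of shared peaks (23.9 to 26.6), with intervals that overlapped. In the weakest group of the WT list, 18.9% of WT-only (17.3 to 20.7) and 24.3% of shared peaks (22.5 to 26.3) were called there. Among peaks with no CTCF peak of WT, 26.4% of WT-only peaks (24.3 to 28.6) and 42.3% of ΔMAZ-only peaks (40.2 to 44.4) were called in ΔCTCF, against 34.4% of 1267 shared peaks (31.8 to 37.1). The ΔCTCF library had the highest depth index of the RAD21 libraries, and the part of depth in these shares was not tested.

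Promoters held a larger share of ΔMAZ-only peaks than of WT-only or shared peaks. A TSS lay within 1 kb of the summit for 22.7% of ΔMAZ-only peaks (21.4 to 24.0), 10.8% of WT-only peaks (9.80 to 11.9) and 9.23% of shared peaks (8.80 to 9.67). Introns held fewer ΔMAZ-only peaks, 33.7% (32.2 to 35.2), than WT-only peaks, 42.6% (40.9 to 44.3). In numbers, there were 1933 promoter peaks in the RAD21 list of WT and 2441 in that of ΔMAZ, while peaks away from promoters numbered 18438 and 18431. The promoter peaks with no CTCF peak of WT went from 437 to 855, and those with one from 1496 to 1586. The CTCF lists did not differ in this way, with 9.12% of CTCF peaks of WT and 9.14% of those of ΔMAZ within 1 kb of a TSS. The excess of promoter peaks depended on the limit and the scaling. With a −log10 q of at least 5 there were 1686 promoter peaks in WT and 1953 in ΔMAZ, and with the stricter limit alone 1742 and 2064. Under that limit ΔMAZ had 1949 when scaled by the shared pileups, 1847 by the background and 1779 by the depth index, while its peaks away from promoters then numbered 17072, 16606 and 16423 against 17665 in WT. Promoter peaks without CTCF numbered 291 in WT under that limit, and 441, 376 and 313 in ΔMAZ by the same scalings, which is 51.5%, 29.2% and 7.56% more. With the depth index the promoter share was still higher at ΔMAZ-only peaks, at 17.1% (15.6 to 18.7) against 10.0% of WT-only peaks (9.07 to 11.1).

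Promoter peaks without a CTCF peak of WT were 646 in the ΔMAZ-only class, 229 in the WT-only class and 208 among shared peaks, and were compared in readouts that had no part in defining them. MAZ peaks of WT were found at 28.5% (25.1 to 32.1) of the ΔMAZ-only and 27.1% (21.7 to 33.2) of the WT-only ones. RAD21 was called after auxin in the parental line at 49.2% (45.4 to 53.1) and 42.4% (36.1 to 48.8). The CTCF core string was rare, at 1.86% (1.07 to 3.22) and 3.06% (1.49 to 6.17). Of the shared ones, 33.2% (27.1 to 39.8) had a MAZ peak and 59.1% (52.3 to 65.6) the RAD21 call after auxin. The string was present at 5.77% of them (3.33 to 9.81), an interval above that of the ΔMAZ-only ones. Away from promoters and with a CTCF peak of WT, the same string was present at 42.4% of 1515 ΔMAZ-only (39.98 to 44.9), 40.8% of 1641 WT-only (38.4 to 43.2) and 45.9% of 14375 shared peaks (45.1 to 46.7). In these comparisons the intervals of the single-line classes overlapped. For some other features they did not. Away from promoters and without CTCF, a MAZ peak was overlapped by 6.86% of 1473 ΔMAZ-only (5.68 to 8.26) and 2.93% of 1363 WT-only peaks (2.16 to 3.97), a RAD21 peak of ΔCTCF by 39.2% (36.8 to 41.8) and 23.7% (21.5 to 26.03), and the CTCF core string was present at 9.57% (8.17 to 11.2) and 18.3% (16.3 to 20.4). At promoters with a CTCF peak of WT, a RAD21 peak of ΔCTCF was overlapped by 27.9% of 229 ΔMAZ-only (22.5 to 34.1) and 12.6% of 135 WT-only peaks (8.01 to 19.2).

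**Figure D2:**
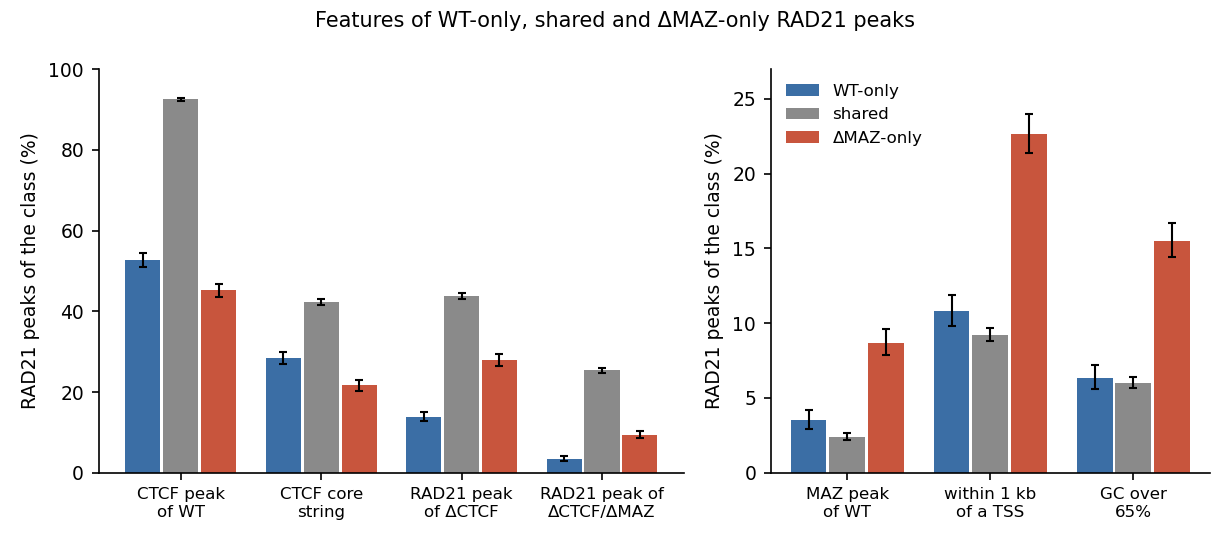
Share of WT-only (blue), shared (grey) and ΔMAZ-only (red) RAD21 peaks, in percent, that overlapped a CTCF peak of WT, held the CTCF core string, or overlapped a RAD21 peak of the auxin-treated lines (left), and that overlapped a MAZ peak of WT, lay within 1 kb of a TSS or had a GC content over 65% (right, with a shorter axis). Lines are Wilson 95% intervals. Shared peaks stood highest on the left, at 92.5% for CTCF, and ΔMAZ-only peaks on the right, at 22.7% for promoters.

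At sites bound by MAZ in WT, RAD21 was called more often in ΔMAZ than in WT. A MAZ peak of WT was overlapped by 3.50% of WT-only peaks (2.93 to 4.18), 2.41% of shared peaks (2.19 to 2.65) and 8.70% of ΔMAZ-only peaks (7.85 to 9.63). Seen from MAZ, RAD21 of WT was called at 521 of 6265 MAZ peaks (8.32%, 7.66 to 9.03) and RAD21 of ΔMAZ at 739 (11.8%, 11.0 to 12.6). Of these MAZ peaks, 411 had RAD21 in both lines, 110 only in WT and 328 only in ΔMAZ. The excess was seen at MAZ peaks within 1 kb of a TSS, with 333 in WT and 486 in ΔMAZ, and at those farther away, with 188 and 253. MAZ peaks without CTCF went from 214 to 394, and those with CTCF from 307 to 345. The size of the excess depended on the setting. Over all MAZ peaks the counts were 405 in WT and 541 in ΔMAZ with a −log10 q of at least 5. They were 521 and 736 with scaling by the depth index alone, which kept nearly all ΔMAZ peaks. With the stricter limit alone they were 430 and 597. Under that limit ΔMAZ had 538 when scaled by the shared pileups, 496 by the background and 460 by the depth index, which is 25.1%, 15.3% and 6.98% more than the 430 of WT, while all ΔMAZ peaks then numbered 19021, 18453 and 18202 against 19407 in WT. At MAZ peaks without CTCF the counts were 120 and 217 with the q limit, and with the stricter limit 136 in WT against 215, 184 and 148 in ΔMAZ by the same scalings. At MAZ peaks away from promoters they were 148 in WT against 177, 163 and 150. That is 1.35% more in ΔMAZ by the depth index, against 34.6% more in the lists as deposited. Within groups of like strength, WT peaks with MAZ were called in ΔMAZ no less often than those without. In the weakest group the share was 54.2% of 227 with MAZ (47.7 to 60.5) and 48.1% of 3848 without (46.5 to 49.6), and in the next group 87.7% of 106 (80.1 to 92.7) and 75.7% of 3968 (74.4 to 77.0). In the ΔMAZ list the order was the other way. In the weakest group 27.5% of 364 peaks with MAZ (23.1 to 32.3) and 42.2% of 3811 without (40.6 to 43.7) were called in WT.

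GC content moved with these results. The median GC content within 50 bp of the summit was 50.5% at WT-only, 52.5% at shared and 53.5% at ΔMAZ-only peaks, and 15.5% of ΔMAZ-only peaks (14.4 to 16.7) but 6.35% of WT-only peaks (5.58 to 7.23) had a GC content over 65%. At most 45% GC was found for 26.1% of WT-only peaks (24.6 to 27.6) and 11.5% of ΔMAZ-only peaks (10.6 to 12.6). The share of WT peaks called in ΔMAZ went from 72.9% at the lowest GC to 91.3% between 60% and 65% and was 82.7% (80.5 to 84.7) over 65%, whereas that of ΔMAZ peaks called in WT went from 83.7% to 62.8% over 65%. Away from promoters, the last share was 77.9% over 65% GC, and at promoters it was 53.6% (50.5 to 56.7). Among ΔMAZ peaks with a GC content over 65%, 57.5% of 435 with MAZ (52.8 to 62.0) and 64.7% of 1174 without (62.0 to 67.4) were called in WT. Between 55% and 60% GC it was 52.9% of 85 with MAZ (42.4 to 63.2) and 82.9% of 4207 without (81.8 to 84.0). In the WT list, peaks with MAZ were called less often in the other line between 60% and 65% GC. There it was 78.6% of 56 (66.2 to 87.3) against 91.8% of 1431 without (90.3 to 93.1). Over 65% GC the shares were 81.3% of 315 with MAZ (76.6 to 85.2) and 83.2% of 922 without (80.6 to 85.5), with intervals that overlapped. For WT peaks the order between 60% and 65% GC was thus the reverse of that by strength. MAZ peaks, promoters and GC content overlap, and the part of each in the ΔMAZ-only calls was not tested.

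**Figure D3:**
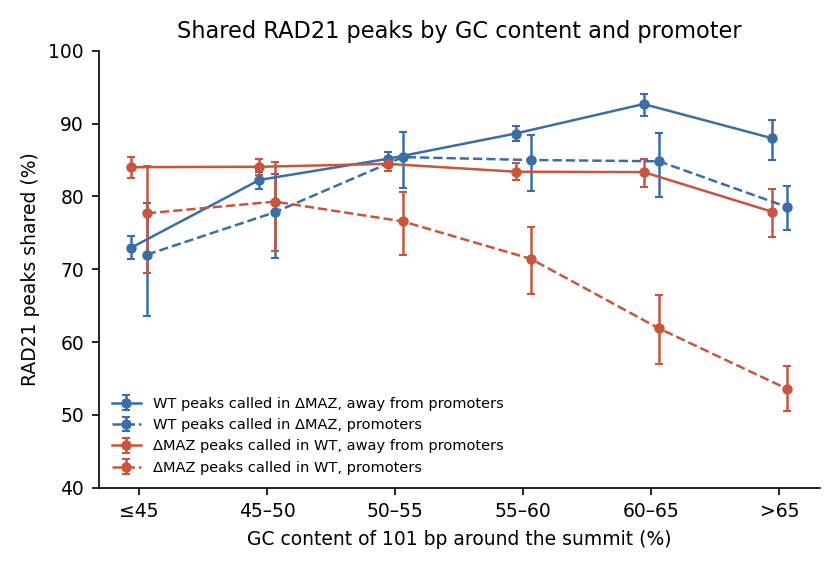
Share of RAD21 peaks that were shared, in percent, by GC content within 50 bp of the summit, for WT peaks (blue) and ΔMAZ peaks (red), at promoters (within 1 kb of a TSS, dashed) and away from them (solid). Points are shares and lines Wilson 95% intervals, and the vertical axis starts at 40%. At promoters over 65% GC, 53.6% of ΔMAZ peaks and 78.6% of WT peaks were shared.

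Single sites with MAZ were found in both classes. The strongest WT-only peak with a MAZ peak of WT was at the promoter of Usp42, a deubiquitinase gene, at chr5:143732154-143732523, 68 bp upstream of the TSS, with a RAD21 fold enrichment of 10.9 and a MAZ fold enrichment of 7.16. The next 4 were in an intron of A930001A20Rik (7.83) and at the promoters of Serbp1, an mRNA-binding protein gene (7.39), Sall1, a zinc finger transcription factor gene (7.39), and Tbl1xr1, a corepressor subunit gene (6.57). None of the 5 had a CTCF peak in WT or ΔMAZ, and all 5 were called in RAD21 ΔCTCF. A ΔMAZ RAD21 peak lay within 500 bp of 3 of them, 331 bp from the A930001A20Rik site, 303 bp from the Sall1 site and 40 bp from the Tbl1xr1 site. The 5 strongest ΔMAZ-only peaks with a MAZ peak of WT, chosen after their values were seen, were all at promoters with CTCF peaks in both lines. They were Fbxo34, an F-box gene (12.4), Rasgrp2, an exchange factor gene (9.74), Bclaf3 (9.65), Cul5, a ubiquitin ligase scaffold gene (9.64), and Ppif, the gene of mitochondrial cyclophilin D (9.27). The strongest ΔMAZ-only promoter peaks without CTCF, also chosen after their values were seen, were at Pafah1b3 (9.79), Zfp637 (9.27), and, at the same value, Gtf3c6, a subunit gene of the RNA polymerase III factor TFIIIC, and Syt4, a synaptotagmin gene (both 8.88), followed by Ttpal (8.49) and Maneal (8.11). Of these 6, only Gtf3c6 had a MAZ peak of WT, of fold enrichment 5.11, and a RAD21 peak of WT lay 123 bp from it.

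At the 16989 sites paired 1 to 1 between the lists, RAD21 strength differed little. The log2 ratio of fold enrichment, ΔMAZ over WT, had a median of −0.00 and an SD of 0.44 over sites, and all ratios below are centred on the median. Summits lay a median of 15 bp apart. The ratio was more than 2-fold above the median at 255 sites (1.5%) and more than 2-fold below it at 243 (1.43%), and among the 8494 sites of higher mean strength at 94 and 62. By groups of sites, the median centred log2 ratio was 0.13 at 408 sites with a MAZ peak of WT, 0.12 at 1564 promoters and −0.04 at 6629 introns. It was −0.07 at 1259 sites with no CTCF peak of WT and 0.01 at 15730 sites with one. The interquartile range at the MAZ sites was −0.14 to 0.41. Over 5 equal groups of GC content the median went from −0.11 to 0.12, and in the highest of these it was 0.13 at 321 sites with MAZ and 0.12 at 3077 without. In that highest group it was 0.17 at 876 promoters and 0.10 at 2522 sites away from them. The 22544 CTCF sites paired between WT and ΔMAZ went the same way with GC content, from −0.08 in the lowest to 0.07 in the highest group. In the highest group CTCF had 0.04 at 1169 promoters and 0.07 at 3340 sites away from them. The shifts of the RAD21 medians were smaller than the SD of 0.44 over single sites. That SD is the spread of sites and not the error of a median. These ratios cover only sites called in both lists, so WT-only peaks with a MAZ peak (3.50% of that class) are not among them, and they say nothing of sites where RAD21 was called in WT alone.

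**Figure D4:**
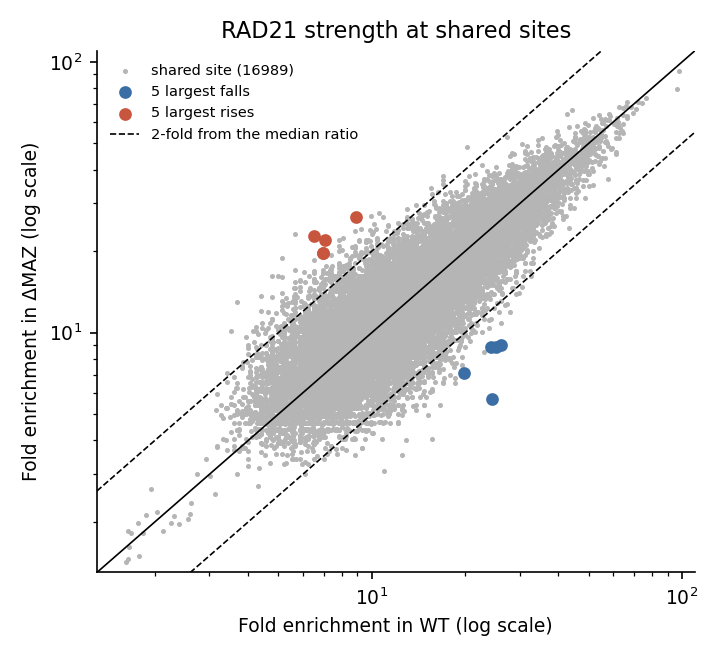
RAD21 fold enrichment in ΔMAZ (vertical, log scale) against WT (horizontal, log scale) at 16989 shared sites (grey). The solid line is the median ratio and the dashed lines are 2-fold from it. Blue and red points are the 5 sites, among those of higher mean strength, with the largest fall and the largest rise, of which 2 rises have the same values and lie on each other.

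The largest falls among strong shared sites were outside promoters. An intron of 4930452B06Rik at chr14:8608576-8608940 had a RAD21 fold enrichment of 24.5 in WT and 5.71 in ΔMAZ, 4.28-fold below the median ratio, with pileups of 58 and 15 reads. The centred log2 ratio of the pileups was −2.14 (−3.07 to −1.31, exact 95% counting interval). The site was picked for its extreme ratio, and the interval does not allow for that choice. The CTCF peak there was 8.78 in WT and 11.1 in ΔMAZ, so that CTCF did not fall with RAD21. Sites in an intron of Nrxn3, a neurexin gene, at chr12:89479141-89479480 (26.1 and 9.02), upstream of Adcyap1, the gene of the neuropeptide PACAP, at chr17:93158496-93158836 (25.2 and 8.88), and in an intron of Frmd4a at chr2:4492527-4492871 (24.3 and 8.88) followed. The site in Grb10, an imprinted gene whose product dampens insulin receptor signalling, lay in an intron, 4401 bp from the nearest TSS, at chr11:11974870-11975225. Its RAD21 fold enrichment was 19.8 in WT and 7.11 in ΔMAZ, and its CTCF peak, of 6.22, was called in WT and not in ΔMAZ. None of these 5 sites had a MAZ peak of WT.

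The largest rises were at sites with CTCF peaks in both lines. The site 18117 bp downstream of the TSS of Epm2aip1, at chr9:111289854-111290223, went from 6.52 in WT to 22.8 in ΔMAZ, 3.50-fold above the median ratio, with pileups of 14 and 58 reads and a centred log2 pileup ratio of 1.86 (1.00 to 2.82). Here, too, the interval does not allow for the choice of the site by its ratio. CTCF there was 63.9 in WT and 82.4 in ΔMAZ, and RAD21 was called at 15.5 in ΔCTCF and 15.1 in ΔCTCF/ΔMAZ. Fold enrichment is not on a common scale between libraries, so these values do not rank the 4 RAD21 libraries. The promoter of Pfkfb3, a regulator of glycolysis, went from 7.06 to 22.0, a site downstream of the start of Tnfsf11, the gene of RANKL, from 8.89 to 26.7, and an intron of Pla2g5, a phospholipase gene, from 6.96 to 19.7. The promoter of Cep120, a centrosome gene, also went from 6.96 to 19.7 and was the only one of the 5 with a MAZ peak of WT, of 5.52. The CTCF peak of WT was 19.9 at Pfkfb3, 17.2 at Tnfsf11, 23.3 at Pla2g5 and 49.9 at Cep120. The median over all CTCF peaks of WT was 13.3. Across the 15198 shared sites with CTCF peaks in both lines, the RAD21 and CTCF ratios were weakly correlated (r = 0.15), a description over sites of single libraries whose ratios share the cell lines. Among the sites of higher strength, CTCF was below its median ratio at 38 of the 55 sites where RAD21 was more than 2-fold below, and at 28 of the 94 sites where it was more than 2-fold above, against 3755 of the 8209 sites (45.7%) within 2-fold.

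Part of the difference was regional. In windows of 20 Mb with at least 30 shared sites, 134 in all, the 4 windows with the highest median RAD21 pileup ratio were also the 4 highest for CTCF, and they lay on chromosomes 14 and X. Over chromosome 14 from 45 to 80 Mb the centred pileup ratio had a median of 0.19 on the log2 scale for RAD21 (277 sites) and 0.22 for CTCF (398 sites), against −0.09 and 0.01 on the rest of the chromosome. On distal chromosome X, from the shared site at 145672953 to that at 168935654, it was 0.42 for RAD21 (78 sites) and 0.37 for CTCF (102 sites), which is 1.34-fold and 1.29-fold, against −0.13 and −0.01 on the rest. In the auxin-treated RAD21 pair, ΔCTCF/ΔMAZ over ΔCTCF, the chromosome 14 stretch stood at 0.13 (88 sites) and the distal X stretch at 0.47 (18 sites), against −0.03 and −0.13 on the rest of those chromosomes. Single-line calls followed. On distal chromosome X, 35.5% of 121 ΔMAZ peaks (27.6 to 44.4) were ΔMAZ-only and 10.3% of 87 WT peaks (5.54 to 18.5) were WT-only, against 18.8% of 282 and 24.7% of 304 on the rest of the chromosome. On the chromosome 14 stretch it was 26.3% of 376 (22.1 to 31.0) and 10.1% of 308 (7.18 to 13.9), against 19.0% of 378 and 21.2% of 387. The stretches were chosen after these values were seen. The Phex, Bclaf3, Fbxo34, Gm4285 and Tnfsf11 sites lie within them. DNA copy number was not tested. Without the stretches the shared shares were 83.3% of WT and 81.7% of ΔMAZ peaks, and 8.76% of ΔMAZ-only peaks had a MAZ peak.

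**Figure D5:**
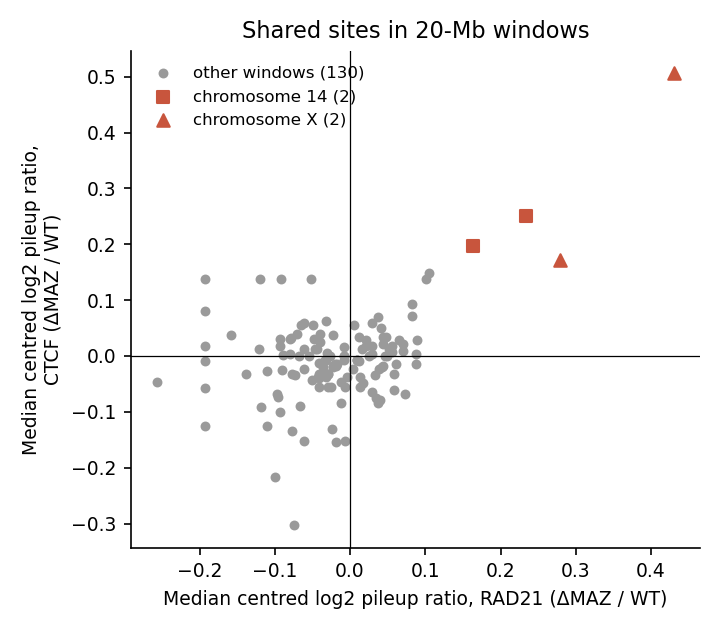
Median centred log2 pileup ratio, ΔMAZ over WT, at shared CTCF sites (vertical) against shared RAD21 sites (horizontal), for 134 windows of 20 Mb. Squares are 2 windows of chromosome 14 and triangles 2 windows of chromosome X, which stand highest for both antibodies. Grey points are the other windows.

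Single-line peaks were also counted in windows of 1 Mb. The window with most ΔMAZ-only peaks was chromosome 15 from 77 to 78 Mb, with 17 of 43 ΔMAZ peaks around the Apol gene cluster, Myh9, Rbfox2 and Txn2, of which 1 had a CTCF peak of WT and 2 a MAZ peak. It was followed by chromosome 5 from 149 to 150 Mb, around Alox5ap and Hmgb1, with 13 of 38, and chromosome 8 from 125 to 126 Mb, around Disc1 and Sipa1l2, with 12 of 29. The highest counts of WT-only peaks were lower, though of the windows named here the one on chromosome 8 from 92 to 93 Mb had the highest share of single-line peaks. They were 8 of 28 WT peaks on chromosome 19 from 47 to 48 Mb, around Sh3pxd2a, and 7 of 10 on chromosome 8 from 92 to 93 Mb, around the developmental regulator genes Irx3 and Irx5, and 7 of 21 on chromosome 6 from 82 to 83 Mb, around Hk2 and Tacr1.

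Lists of genes were described by the RAD21 peaks within 25 kb of their TSSs. Near 15 genes of cohesin and its regulators, 1 of 11 WT peaks was WT-only, 8159 bp upstream of Pds5a, and 0 of 10 ΔMAZ peaks were ΔMAZ-only. Near 11 genes of MAZ and other zinc finger proteins, 1 of 9 WT peaks was WT-only, at the promoter of Sp3 under a MAZ peak of WT, and 2 of 10 ΔMAZ peaks were ΔMAZ-only, in Maz and upstream of Sp7 near Sp1. Near 17 pluripotency genes, 3 of 29 WT peaks were WT-only (10.3%) and 9 of 35 ΔMAZ peaks were ΔMAZ-only (25.7%). The last included 3 peaks around Klf2, 2 around Tbx3 and 1 at the promoter of Esrrb, all of them genes of transcription factors of the naive state. The 3 WT-only peaks lay downstream of Klf2, within 500 bp of 1 of its ΔMAZ-only peaks (5.65), near Tbx3 (5.65) and at the promoter of Klf5 (4.91). At the Klf2 promoter the ΔMAZ-only peak, 87 bp upstream of the TSS, had a fold enrichment of 4.35, and at that of Esrrb 5.14, and both overlapped a MAZ peak of WT and RAD21 peaks of ΔCTCF and ΔCTCF/ΔMAZ. Near 39 Hox genes, 2 of 20 WT peaks were WT-only (10.0%) and 10 of 28 ΔMAZ peaks were ΔMAZ-only (35.7%). The backgrounds over all peaks are 16.5% and 18.5%, and with so few peaks per list no list is called different from them.

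In the Hox clusters, which hold the body axis genes and are dense in CTCF sites, the 10 ΔMAZ-only peaks had fold enrichments from 3.01 to 6.15. In the HoxC cluster, a ΔMAZ-only peak of 6.15 lay 405 bp upstream of the Hoxc13 TSS and one of 4.04 lay 4773 bp upstream of Hoxc12, both under MAZ peaks of WT. At Hoxc5, a ΔMAZ-only peak of 4.61 in an exon, at chr15:103014294-103014554, lay beside a WT-only peak of 6.39 in an intron, at chr15:103014733-103014965, which overlapped CTCF and MAZ peaks of WT. This pair lies within 500 bp, so that both peaks count as shared when a gap of that size is allowed. In the HoxD cluster, a WT-only peak of 8.69 lay in an exon of Evx2 and a ΔMAZ-only peak of 5.47 lay upstream of it, 4566 bp from the Hoxd13 TSS.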

How the data were processed

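ChIP-seq was done by the authors with an antibody to RAD21 on chromatin with a Drosophila spike-in. Reads were mapped to mm10 with Bowtie 2, filtered with SAMtools and narrow peaks were called with MACS, per the study's methods, and there is 1 list for each library used. Whether an input was used is not stated. No value used here was scaled by the spike-in. The lists that the authors deposited give a fold enrichment (a ratio with a pseudocount of 1), a −log10 p and a −log10 q, and a score that was not used. From the fold enrichment and −log10 p, whole pileups and backgrounds were solved for each RAD21 and CTCF peak used. The read depth is not in the lists, so the intervals cover counting error only.

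Overlaps used at least 1 bp and were checked against bedtools 2.31.1 and on simulated data. Annotation was GENCODE M21, with a promoter within 1 kb of a TSS, an exon, an intron or intergenic sequence by the summit. GC content, repeats and strings were read from GRCm38. Promoter sequences for comparison came from RefSeq (GRCm38). Shares have Wilson 95% intervals and pileup ratios exact binomial ones. With 1 list per side no test was made. Strength groups are 5 equal groups by fold enrichment. Shared sites are mutual best overlaps. The stricter limit was the 5th percentile of the −log10 p of WT. Alternatives were another overlap, a gap of 500 bp, a −log10 q of at least 5, the 10000 strongest peaks, scaling ΔMAZ by the depth index, wider windows and ranking by −log10 q, and, chosen after the data were seen, the stricter limit with and without each scaling, the 10000 strongest peaks read against the full other list and leaving out stretches of chromosomes 14 and X.

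The sites named were the 10 WT-only and 10 ΔMAZ-only peaks of highest fold enrichment, 5 WT-only peaks with MAZ, the 5 largest falls and rises among shared sites above the median mean strength, the 3 windows of 1 Mb with most single-line peaks of each kind, and 4 gene lists. Members and lists were chosen with earlier results of these data known. The other 8 samples have no peak list among the files used and were not used here. Python 3.11.15, numpy 2.4.6, pandas 2.3.3 and scipy 1.17.1 were used.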

Additional observations from a re-analysis of the deposited data

How the results depend on the processing

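No paired analysis was possible because a single list stands on each side. Of 100 alternatives to the main shares, 29 left the value within its interval and 71 moved it. The stricter limit (with and without scaling), the strongest peaks read against the full other list and the removal of the stretches of chromosomes 14 and X were chosen after the data were seen. The shared share of WT and of ΔMAZ peaks was 82.4% and 80.4% with a reciprocal overlap of 50%, 84.0% and 82.5% with a gap of up to 500 bp, 84.6% and 84.4% when a −log10 q of 5 or more was asked of every list, 86.6% and 86.6% with that limit on the own list only, and 99.1% and 99.3% for the 10000 strongest read against the full other list. With the stricter limit it was 84.5% and 83.8% without scaling, 82.7% and 87.0% scaled by the background, and 82.2% and 87.6% by the depth index, and 85.4% of ΔMAZ peaks by the shared pileups. When both lists were cut to 10000, 83.85% of ΔMAZ peaks were shared, but a peak whose partner ranked lower then counts as single-line. The CTCF share of WT-only, shared and ΔMAZ-only peaks was 48.9%, 90.9% and 40.8% with the reciprocal overlap, 57.9%, 93.8% and 57.0% with the q limit in every list, 60.03%, 93.6% and 57.6% with it on the own list, 92.4%, 99.1% and 96.3% with both lists cut to 10000, and 81.1%, 98.1% and 88.2% for the 10000 strongest against the full other list. With the stricter limit it was 58.7%, 94.0% and 54.6% without scaling, 59.5%, 94.1% and 57.7% by the shared pileups, 60.1%, 94.5% and 60.6% by the background, and 60.9%, 94.5% and 64.1% by the depth index. With the gap it was 46.8% at ΔMAZ-only peaks. The MAZ share in the same order was 1.76%, 1.36% and 4.41% with the reciprocal overlap, 2.36%, 1.63% and 6.33% with the q limit in every list, 2.12%, 2.13% and 6.83% with it on the own list, 0.620%, 1.79% and 2.66% with both lists cut to 10000, and 1.11%, 1.60% and 1.47% for the 10000 strongest against the full other list, where it rests on 1 peak in each single-line class. With the stricter limit it was 2.78% at WT-only and 2.12% at shared peaks without scaling, and at shared and ΔMAZ-only peaks 2.06% and 7.28% by the shared pileups, 2.04% and 6.89% by the background, and 2.01% and 6.09% by the depth index. It was 3.31% at shared and 10.9% at ΔMAZ-only peaks with the gap. The MAZ share was higher at ΔMAZ-only than at WT-only peaks under each of these, but for the 10000 strongest against the full other list with overlapping intervals. The order of the CTCF shares turned for the strongest peaks and under the stricter limit scaled by the background or the depth index. The WT-only and ΔMAZ-only intervals overlapped in each of these settings, except with both lists cut to 10000. The cause was not tested. Removing the stretches moved none of these shares. Neither did scaling by the depth index without a new limit, but that setting kept 20841 of 20872 ΔMAZ peaks and could hardly move them.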

Other observations

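Repeats and widths differed between the classes as well. More than 50% of the bases within 50 bp of the summit were repeat-masked at 24.6% of WT-only peaks (23.2 to 26.1), 16.1% of ΔMAZ-only peaks (15.0 to 17.3) and 14.1% of shared peaks (13.5 to 14.6). Median peak width was 220 bp at WT-only, 213 bp at ΔMAZ-only and 318 bp at shared peaks of the WT list. By chromosome, the WT-only share ran from 13.9% on chromosome 7 to 21.5% on chromosome X, and the ΔMAZ-only share from 15.0% on chromosome 3 to 23.8% on chromosome X, leaving out chromosome Y with 1 peak in each list.

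The CTCF peaks called after auxin were overlapped by a larger share of shared than of single-line RAD21 peaks. A CTCF peak of ΔCTCF was overlapped by 12.7% of shared RAD21 peaks (12.3 to 13.3), 0.653% of WT-only peaks (0.432 to 0.987) and 2.15% of ΔMAZ-only peaks (1.74 to 2.66).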
